A study of Mus musculus with 24 samples.

Results

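The extracellular matrix genes described here are 48 genes other than collagens, chosen by name, of the 48544 genes measured. They were grouped by role into 9 adhesive and matricellular glycoproteins, 11 genes of elastic fibres and microfibrils, 5 proteoglycans, 9 genes of basement membranes, 12 enzymes and chaperones of collagen maturation and crosslinking, and 2 other matrix-associated genes, Cd248 and Megf6. Earlier results of these data were known when these members and the other gene lists below were chosen. Counts set beside those of all genes are therefore descriptive. All 48 members were found under their symbols, and 47 entered the statistical tests. Fbn2, which encodes a fibrillin, did not pass the filter on low values: its highest level in any library was 0.00376 TPM (a measure of transcript abundance scaled by length), and it was listed at 0 in all 8 vehicle libraries. Among the tested members Eln, Tgfbi and Mfap4 stood below 1 TPM in every library, with highest values of 0.175, 0.389 and 0.689 TPM, so folds are not given for them.

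Cells secrete the matrix as soluble proteins that are assembled outside the cell. Fibronectin fibrils and fibrillin microfibrils act as scaffolds, fibulins and microfibril-associated proteins join elastin to them, and small leucine-rich proteoglycans bind collagen fibrils and growth factors. Laminins, nidogens and perlecan form the basement membrane that sheathes each muscle fibre. Prolyl and lysyl hydroxylases and the chaperone HSP47 prepare procollagen inside the cell, and lysyl oxidases crosslink collagen and elastin outside it.

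Messenger RNA was sequenced from wild-type C2C12, an established line of mouse myoblasts that fuse into multinucleated myotubes when serum is lowered. There were 24 libraries in 6 groups of 4. The starting cells were day 0 myoblasts at 80 to 90% confluence in 10% fetal bovine serum (FBS), and the differentiated cells were day 7 myotubes in 2% FBS. From day 7, myotubes received medium with 100 µM dexamethasone, a synthetic glucocorticoid used to induce atrophy, or vehicle medium with 1% ethanol, both with 2% FBS. They were harvested after 24 h (day 8) or 72 h (day 10). Ethanol is named in the labels of vehicle medium and not of treated medium, so an effect of ethanol and one of dexamethasone cannot be told apart if the treated medium lacked it. They do not say that replicates were separate cultures, so a p-value here reflects the spread of these libraries, and that spread may be technical. In bulk RNA, fewer cells of a type and less RNA per cell cannot be told apart.

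Levels are TPM, given for replicates 1 to 4 in that order or as mean ± SD (n = 4). Folds are ratios of mean TPM. Tests were made with limma on the deposited log2 table over 16257 genes, and a gene was called higher or lower at an adjusted p below 0.05. Differences on that log2 scale understate folds: at day 7, Postn differed by 2.53 there and by 4.41 in log2(TPM + 0.1). Between 12427 and 13029 genes per library reached 1 TPM. The sequencing depth is unknown. The replicate 1 libraries at 72 h stood between the groups for genes that separated the other replicates. For 22 genes below 0.5 TPM in the other vehicle 72 h libraries and at 3 TPM or more in the other dexamethasone 72 h libraries, the vehicle replicate 1 library held a median 14.1% of the dexamethasone replicate 1 level, against 0.514% in the other replicates. For 17 genes with the opposite pattern, the dexamethasone replicate 1 library held a median 20% of the vehicle replicate 1 level, against 1.63% in the others. Both sets of genes were picked on the other replicates, so the low percentages there follow from the choice. Replicate 1 took no part in it, and no other replicate was left out of the choice in turn. The percentages thus do not measure how unusual replicate 1 was. Values at 72 h are also given without both libraries (n = 3).

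Together the 48 genes took 1.09% of all TPM in day 0 myoblasts, 1.43% in day 7 myotubes, 1.6% and 1.65% with vehicle at 24 h and 72 h, and 1.17% and 0.878% with dexamethasone at the same times. Sparc, a collagen-binding glycoprotein, Spp1 (osteopontin) and Fn1 (fibronectin) were the most abundant glycoproteins in every group but dexamethasone at 24 h, where Postn stood at 2028.7 ± 328.9 TPM, between Sparc and Spp1. Mfap5 led the elastic fibre genes at day 7 with 408.0 ± 174.0 TPM, and Bgn (biglycan) the proteoglycans with 1463.9 ± 117.5 TPM. In the basement membrane group Nid1 was highest in myoblasts, at 207.5 ± 61.6 TPM, and Nid2 at day 7, at 113.3 ± 25.6 TPM. With dexamethasone at 72 h Nid2 was at 44.9 ± 42.2 TPM, below Hspg2 and Nid1. Serpinh1, which encodes HSP47, led the collagen maturation genes at day 7 with 875.7 ± 91.7 TPM, ahead of Lox at 345.0 ± 42 TPM.

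**Figure D1:**
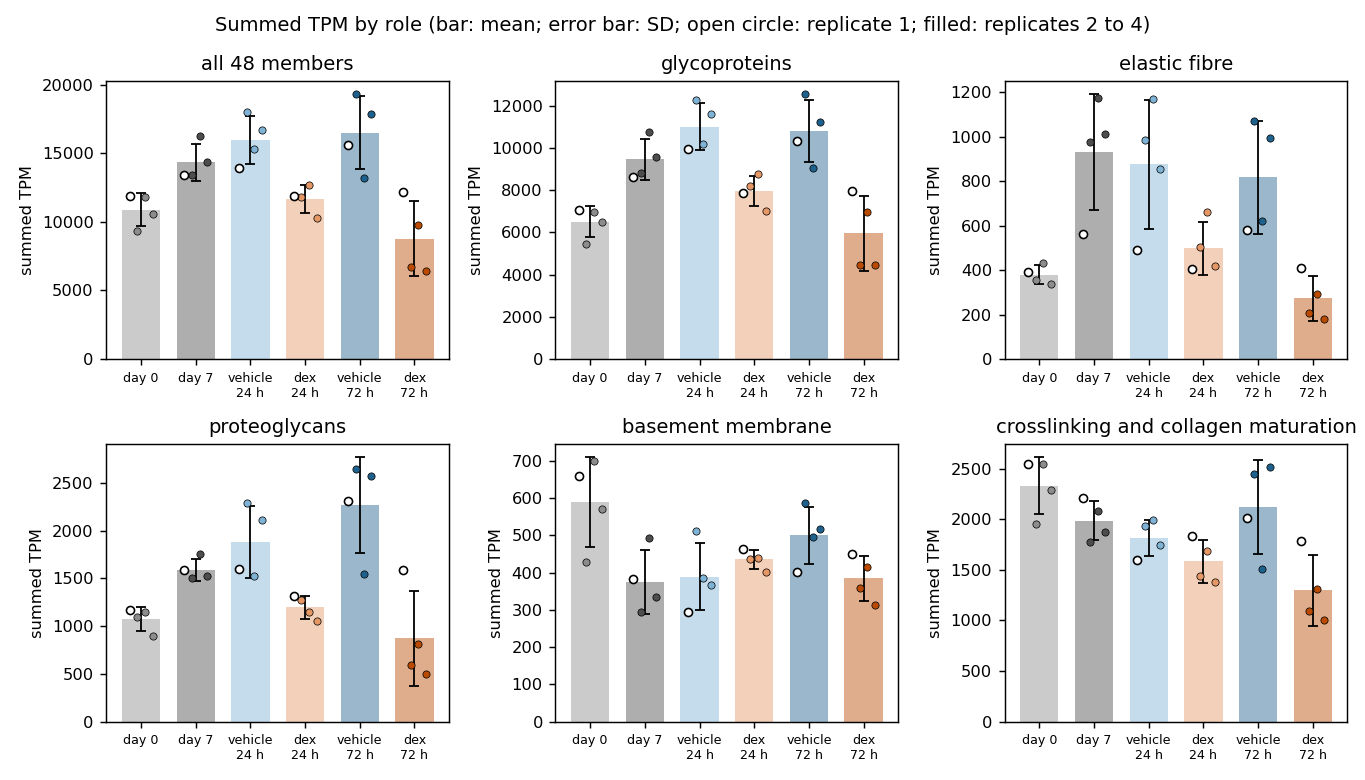
Summed TPM of the 48 members and of 5 role groups in the 6 groups of libraries; bars are means, error bars SD (n = 4), and points are libraries. With dexamethasone at 72 h the sum over all members was 8782.5 ± 2733.2 TPM against 16507.1 ± 2655.2 TPM with vehicle (7645.0 and 16800.6 TPM without replicate 1), while the basement membrane sum was highest in day 0 myoblasts at 589.5 TPM.

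The summed level of the glycoproteins was 7954.3 ± 726.7 TPM with dexamethasone at 24 h and 11002.7 ± 1102.2 TPM with vehicle. At 72 h these sums were 5947.3 ± 1776.7 and 10786.0 ± 1470.0 TPM, or 5280.5 and 10942.9 TPM without replicate 1. Elastic fibre genes summed to 272.3 ± 102.7 TPM with dexamethasone at 72 h and 816.1 ± 252.0 TPM with vehicle, or 226.5 and 895.2 TPM without replicate 1. Basement membrane genes summed to 435.6 ± 26.3 TPM with dexamethasone at 24 h and 389.5 ± 90.1 TPM with vehicle, and the ranges of the libraries overlapped. At 72 h their sums were 385.1 ± 60.7 and 500.5 ± 76.1 TPM, again with overlap. Without replicate 1 they were 363.1 ± 51.5 and 533.5 ± 46.4 TPM, and the treated libraries were all lower. Nid2 alone then stood at 24.2 TPM with dexamethasone and 216.6 TPM with vehicle, a larger gap than that of the sum.

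**Figure D2:**
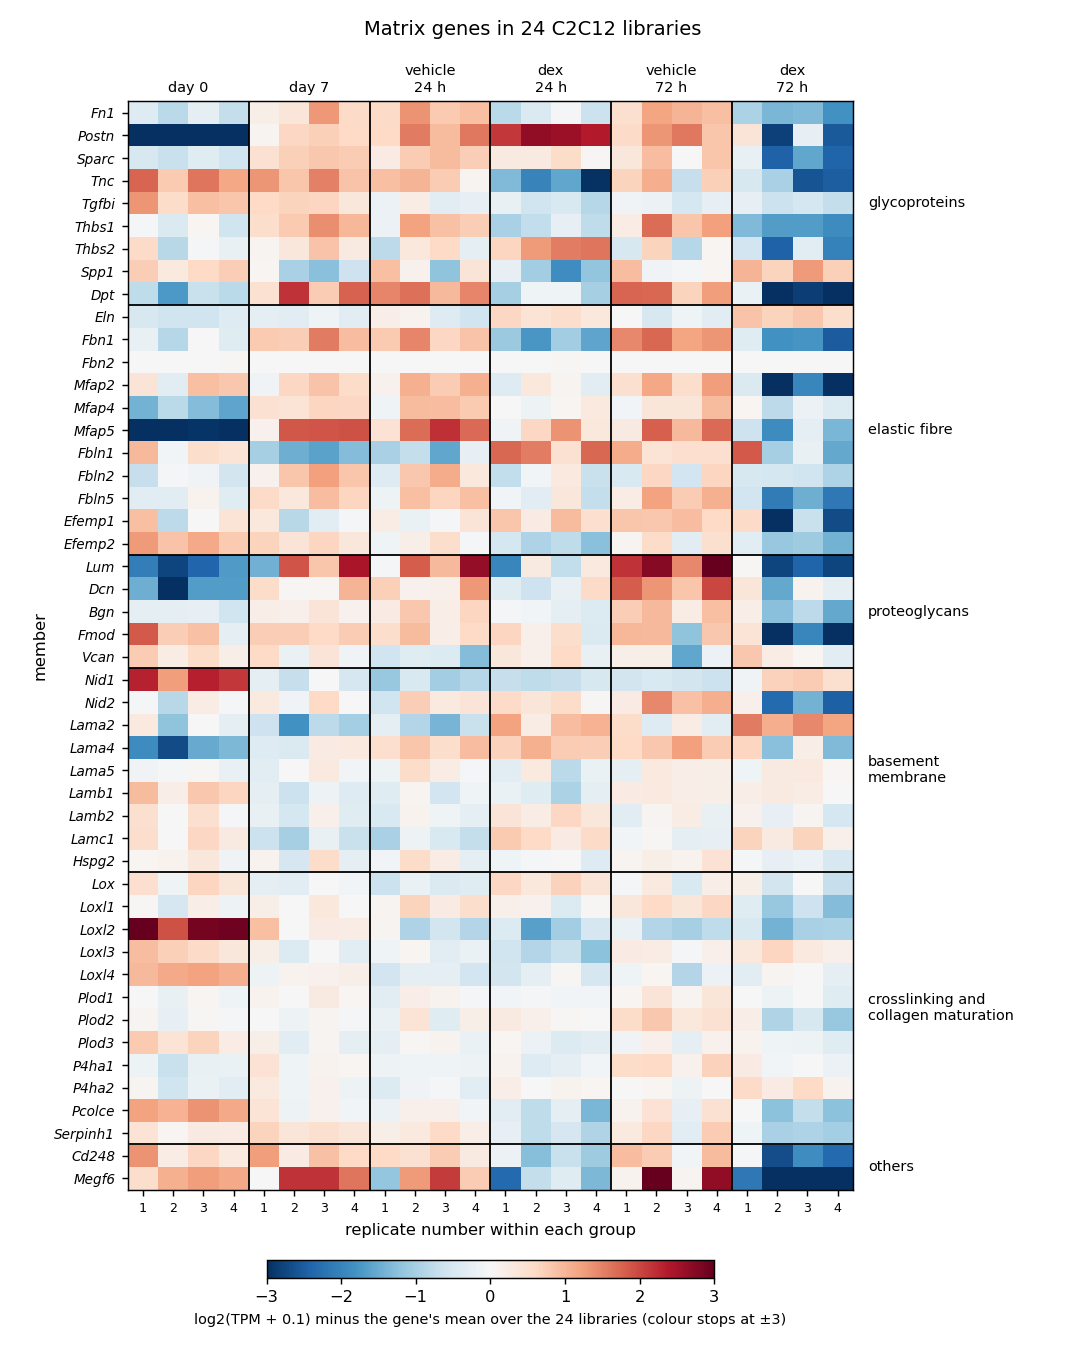
Heat map of log2(TPM + 0.1) minus the mean of each gene over the 24 libraries, for the 48 members in rows grouped by role and the libraries in columns by group; the colour scale stops at 3 in either direction. Dexamethasone 72 h replicates 2 to 4 carry the lowest values of many glycoprotein, elastic fibre and proteoglycan genes, and replicate 1 stands closer to the vehicle libraries for genes such as Postn, Sparc and Nid2.

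Promoter sequences are shown for 4 members whose levels moved with dexamethasone in different ways: Postn and Fbln1 were higher at 24 h, and Fbn1 and Tnc were lower at both times. The RefSeq table used, of build GRCm38.p6, held 31 of the 48 members. Each sequence is the 250 bases before the annotated start, printed 5′ to 3′ on the strand of the gene. Capitals mark a TATAAA in Postn (chr3:54360857-54361106, plus strand) and in Tnc (chr4:64047016-64047265, minus strand), and a TGTTCT, the hexamer of the glucocorticoid receptor site, in Fbln1 (chr15:85205699-85205948, plus strand). Fbn1 (chr2:125506439-125506688, minus strand) held none of the motifs searched.
Postn: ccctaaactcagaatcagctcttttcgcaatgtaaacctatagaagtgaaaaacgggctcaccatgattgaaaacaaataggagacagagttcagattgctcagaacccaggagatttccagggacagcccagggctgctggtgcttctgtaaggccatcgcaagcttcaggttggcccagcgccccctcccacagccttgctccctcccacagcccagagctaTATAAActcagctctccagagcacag
Fbln1: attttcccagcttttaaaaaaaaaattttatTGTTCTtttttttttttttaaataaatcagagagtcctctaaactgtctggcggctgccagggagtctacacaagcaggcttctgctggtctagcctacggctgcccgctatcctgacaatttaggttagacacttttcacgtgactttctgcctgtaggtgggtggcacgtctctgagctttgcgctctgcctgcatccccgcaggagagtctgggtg
Fbn1: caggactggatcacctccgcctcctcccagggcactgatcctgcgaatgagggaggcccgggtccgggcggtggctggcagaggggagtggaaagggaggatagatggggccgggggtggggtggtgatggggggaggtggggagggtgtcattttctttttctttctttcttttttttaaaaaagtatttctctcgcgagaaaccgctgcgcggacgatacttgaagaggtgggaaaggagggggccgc
Tnc: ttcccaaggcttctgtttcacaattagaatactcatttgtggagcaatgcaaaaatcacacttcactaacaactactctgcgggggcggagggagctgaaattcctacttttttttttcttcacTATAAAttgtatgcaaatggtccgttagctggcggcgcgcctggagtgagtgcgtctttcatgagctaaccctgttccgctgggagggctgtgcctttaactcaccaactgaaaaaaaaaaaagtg
The TATAAA lay 26 to 21 bases before the start in Postn and 126 to 121 bases before it in Tnc. Each motif was searched on both strands. The shares below count every entry of the table, where a gene can have more than 1, but a single window per member. They are therefore of unlike units. TATAAA occurred in 12.4% of all 32851 promoters in the table and in 5 of the 31 members (Plod1, Postn, Spp1, Thbs2 and Tnc). TGTTCT occurred in 16.1% of all promoters and in 5 of the 31 (Bgn, Fbln1, Lama2, Mfap2 and Sparc). The whole palindromic glucocorticoid receptor site, whose right arm can overlap a TGTTCT, occurred in 0.387% of all and in 0 of the 31. TGANTCA, the AP-1 site, occurred in 6.75% of all and in 1 of the 31 (Efemp1). These are matches of letters in a short window.

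The first comparison sets myotubes at day 7 against myoblasts at day 0, and so holds the lowering of serum from 10% to 2% as well as differentiation. Of 47 members 17 were higher and 12 lower. Over all tested genes 60.3% were called (30.5% higher and 29.8% lower), so the members' share of calls was close to the background. On TPM 25.8% of all genes were higher and 32.5% lower, and the members counted 14 higher and 13 lower of 45. The members' median difference was 0.15 on the log2 scale, against 0.01 over all genes. The roles differed in direction: glycoproteins counted 5 higher and 1 lower of 9, elastic fibre genes 5 and 1 of 10, and proteoglycans 3 and 0 of 5. Basement membrane genes counted 1 higher and 4 lower of 9, and collagen maturation genes 3 and 6 of 12.

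Among glycoproteins, Postn encodes periostin, a matricellular protein of remodelling connective tissue. It stood at 31.1, 18.8, 32.7 and 19.3 TPM at day 0 and at 391.3, 566.0, 605.3 and 564.3 TPM at day 7. Every myotube library was above every myoblast library. The mean rose 20.9-fold (log2 difference 2.53 ± 0.29 SE, limma adjusted p = 1.32e-07). Sparc rose 2.31-fold, from 2074.6 ± 188.3 to 4793.1 ± 496.4 TPM, and Fn1 2.31-fold, from 678.9 ± 120.4 to 1565.0 ± 593.0 TPM. Neither of these passed the threshold after quantile normalisation (adjusted p = 0.122 for Sparc and 0.405 for Fn1). Thbs1, an adhesive glycoprotein that can activate latent TGF-beta, rose 2.3-fold, and Dpt (dermatopontin) rose from 0.487 ± 0.167 to 2.98 ± 1.64 TPM. Spp1 was the one glycoprotein that fell, 2.32-fold from 3104.3 ± 419.4 to 1338.2 ± 553.8 TPM.

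Mfap5, a microfibril-associated glycoprotein, had the largest fold among members with a mean of at least 0.5 TPM in both groups. Its levels were 6.91, 9.2, 17.4 and 12.2 TPM at day 0 and 147.2, 484.7, 497.7 and 502.4 TPM at day 7. Replicate 1 was the lowest myotube library but still above all myoblast libraries. The mean rose 35.8-fold (log2 difference 3.12 ± 0.30 SE, adjusted p = 1.24e-08). Fbn1, which encodes the main microfibril protein fibrillin-1, stood at 46.2, 29.6, 54.1 and 41.7 TPM at day 0 and 92.9, 89.9, 158.5 and 101.9 TPM at day 7. No library overlapped between the groups, and the mean rose 2.58-fold (adjusted p = 0.000101). Fbln2 and Fbln5, fibulins that bind elastin and microfibrils, rose 2.18-fold and 1.8-fold, and Mfap4 rose from 0.0732 to 0.496 TPM. Fbln1, another fibulin, went the other way: it stood at 54.2, 26.4, 40.2 and 36.7 TPM at day 0 and 13.8, 10, 9.05 and 11.3 TPM at day 7. All its myotube libraries were below all its myoblast libraries, and the mean fell 3.57-fold (log2 difference -1.14 ± 0.33 SE, adjusted p = 0.00482).

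Dcn encodes decorin, a small leucine-rich proteoglycan that binds collagen fibrils and TGF-beta. It stood at 15.2, 4.82, 13.1 and 13.3 TPM at day 0 and 62.3, 43.3, 44 and 85.7 TPM at day 7. No library overlapped between the groups, and the mean rose 5.07-fold (adjusted p = 2.07e-05). Lum (lumican) rose from 0.0488 ± 0.0455 to 1.79 ± 1.49 TPM, and Bgn rose 1.48-fold (adjusted p = 0.0291). The call of Bgn was lost on TPM (adjusted p = 0.058), with no filter on low values (0.0537) and without any one of myoblast replicates 1 and 4 and myotube replicates 2 and 3 (adjusted p between 0.0545 and 0.074). Fmod (fibromodulin) and Vcan (versican) did not pass the test.

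In the basement membrane group the nidogen Nid1, which links laminin to type IV collagen, stood at 246.2, 117.9, 249.9 and 216.1 TPM at day 0 and 40.4, 30.5, 49.4 and 35.2 TPM at day 7. The groups did not overlap, and the mean fell 5.34-fold (log2 difference -1.65 ± 0.12 SE, adjusted p = 1.04e-10). The laminin chains Lamb1, Lamc1 and Lamb2 fell 2.04-fold, 1.99-fold and 1.39-fold. Lama4, a laminin alpha chain, was the one member of the group that rose. It stood at 1.5, 0.825, 1.98 and 2.23 TPM at day 0 and 4.43, 4.26, 6.94 and 7.17 TPM at day 7, with no overlap, and rose 3.49-fold (adjusted p = 6.23e-05). Lama2, the alpha chain of muscle laminin, was at 8.51 ± 3.29 and 4.87 ± 1.59 TPM (adjusted p = 0.0562); with the replicate number as a block it was called lower (adjusted p = 0.000857). Nid2, Lama5 and Hspg2 (perlecan) did not pass the test.

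Among the lysyl oxidases, Loxl2 stood at 32.1, 11.1, 21.7 and 22.5 TPM at day 0 and 5.54, 2.93, 3.47 and 3.4 TPM at day 7. All myotube libraries were lower, and the mean fell 5.71-fold (log2 difference -1.77 ± 0.22 SE, adjusted p = 4.37e-07). Lox, Loxl3 and Loxl4 fell 1.45-fold, 1.72-fold and 2.09-fold. Pcolce, which enhances procollagen C-proteinase, fell 2.15-fold, and the lysyl hydroxylase Plod3 fell 1.52-fold. The lysyl hydroxylase Plod1 and the prolyl hydroxylase subunits P4ha1 and P4ha2 rose by 1.13 to 1.34-fold, and the calls of Plod1 (adjusted p = 0.171) and P4ha2 (adjusted p = 0.0797) were lost on TPM. The calls of Lox, Lamb2 and P4ha2 were close to the threshold. Lox was lost with no filter (0.0673) and without any one of myoblast replicates 1, 3 and 4 and myotube replicates 1 and 2 (adjusted p between 0.0736 and 0.109), with log2 differences from -0.29 to -0.25 against -0.30 with all libraries. Lamb2 was lost without any one of myoblast replicates 1 and 3 and myotube replicates 2 and 4 (0.0716 to 0.0818), with differences of -0.23 to -0.22 against -0.26, and P4ha2 without myotube replicate 1 (0.0609). Members of the other roles that did not pass were Tnc, Tgfbi, Thbs2, Eln, Mfap2, Efemp1, Efemp2, Cd248 and Megf6, and in this role Loxl1, Plod2 and Serpinh1.

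Dexamethasone was compared with vehicle at 24 h to describe the early response of myotubes. Of 47 members 8 were higher and 18 lower, against 25.4% of all genes called (13.2% higher and 12.2% lower). The members' median difference was -0.34 on the log2 scale, against -0.01 over all genes. Glycoproteins counted 2 higher and 6 lower of 9, elastic fibre genes 2 and 4 of 10, collagen maturation genes 1 and 4 of 12, and Cd248 and Megf6 were both lower. Proteoglycans counted 0 higher and 1 lower of 5, and basement membrane genes 3 higher and 1 lower of 9. On TPM the count was 6 higher and 11 lower of 45, against 14% and 7.61% of all genes. With the replicate number as a block it was 9 higher and 22 lower, against 14.5% and 13.9% of all genes. Mfap5 (adjusted p = 0.0233), Dcn (0.0143), Lum (0.035) and Loxl2 (0.0349) were then also lower and Vcan (0.032) higher, which took the proteoglycans to 1 higher and 3 lower.

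Tnc encodes tenascin-C, an anti-adhesive glycoprotein of developing and injured tissue. It stood at 60.3, 66.1, 55 and 34.4 TPM with vehicle and 12.9, 8.05, 11 and 4.04 TPM with dexamethasone. The groups were well apart, and the mean fell 5.99-fold (log2 difference -1.78 ± 0.27 SE, adjusted p = 5.66e-05). Fn1 stood at 1461.1, 2475.5, 1688.9 and 1835.4 TPM with vehicle and 555.1, 726.4, 933.7 and 625.8 TPM with dexamethasone. Every treated library was lower, and Fn1 fell 2.63-fold (log2 difference -1.04 ± 0.16 SE, adjusted p = 5.24e-05). Thbs1 stood at 477.9, 1246.9, 993.3 and 894.1 TPM with vehicle and 274.1, 320.1, 457.4 and 315.4 TPM with dexamethasone. The lowest vehicle library, replicate 1, was just above the highest treated library, and the mean fell 2.64-fold (adjusted p = 0.00044). Dpt fell 4.16-fold, from 2.87 to 0.69 TPM, and Spp1 fell 2.29-fold with overlapping libraries (adjusted p = 0.0212). Tgfbi, below 0.2 TPM in both groups, was also called lower.

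Of the other glycoproteins 2 were called higher, Thbs2 and Postn, and Sparc did not pass the test. Thbs2, a thrombospondin that lacks the TGF-beta activating sequence of Thbs1, stood at 40.8, 88, 106.7 and 58.6 TPM with vehicle and 110.7, 172.1, 204.5 and 214.7 TPM with dexamethasone. The groups did not overlap, although the highest vehicle and the lowest treated library were close, and the mean rose 2.39-fold (log2 difference 0.85 ± 0.26 SE, adjusted p = 0.0196). The call was lost without dexamethasone replicate 4 (0.0627) or vehicle replicate 1 (0.071). Postn stood at 559.7, 1090.0, 710.7 and 1113.2 TPM with vehicle and 1609.5, 2357.2, 2209.6 and 1938.5 TPM with dexamethasone. No library overlapped, and the mean rose 2.34-fold (adjusted p = 0.031). That call was not stable: it was lost on TPM (adjusted p = 0.068), without a filter on low values (0.0646), and without any one of dexamethasone replicates 2, 3 and 4 and vehicle replicates 1 and 3 (0.0572 to 0.0883).

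Fbn1 was the elastic fibre gene that fell most at 24 h. It stood at 93.7, 149.3, 82.7 and 98.4 TPM with vehicle and 25, 16, 26.2 and 18.1 TPM with dexamethasone. The highest treated library was far below the lowest vehicle library, and the mean fell 4.97-fold (log2 difference -1.62 ± 0.19 SE, adjusted p = 2.31e-06). Efemp2 (fibulin-4), which is needed for elastic fibre assembly, fell 2-fold (adjusted p = 0.000737), and Fbln5 and Fbln2 fell 1.71-fold and 1.74-fold. Fbln1 rose instead: it stood at 14.1, 16.8, 9.33 and 23.4 TPM with vehicle and 91.7, 80.2, 38.1 and 91.7 TPM with dexamethasone. All treated libraries were above all vehicle libraries, and the mean rose 4.74-fold (log2 difference 1.48 ± 0.33 SE, adjusted p = 0.00217). Eln (elastin) was called higher at a level of 0.112 TPM against 0.0387 TPM.

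In the proteoglycan group Bgn fell 1.61-fold, from 1766.1 ± 367.8 to 1096.1 ± 126.8 TPM (adjusted p = 0.0256). In the basement membrane group 3 laminin chains rose. Lama2 stood at 7.98, 5.27, 3.67 and 6.11 TPM with vehicle and 22.7, 11.4, 18.8 and 20.2 TPM with dexamethasone. All treated libraries were higher, and the mean rose 3.17-fold (log2 difference 1.08 ± 0.20 SE, adjusted p = 0.000434). Lamc1, the gamma chain that most laminins share, was at 21.9 ± 5.51 TPM with vehicle and 47.2 ± 7.23 TPM with dexamethasone, a 2.16-fold rise (adjusted p = 3.81e-05). Lamb2 rose 1.48-fold. Lama5 fell 1.29-fold with overlapping libraries. Nid1, Nid2, Lama4, Lamb1 and Hspg2 did not pass the test.

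Among collagen maturation genes Lox rose 1.89-fold, from 292.3 ± 37.5 to 552.9 ± 69.1 TPM (adjusted p = 0.00173), without overlap. Its relatives Loxl3 and Loxl1 fell 1.61-fold and 1.33-fold, Serpinh1 fell 1.88-fold (adjusted p = 0.00164) and Pcolce 1.55-fold. Cd248 encodes endosialin, a receptor of stromal cells that binds matrix proteins. It stood at 10.2, 9.2, 11.4 and 8.11 TPM with vehicle and 5.9, 2.71, 4.15 and 3.13 TPM with dexamethasone. Every treated library was lower, and the mean fell 2.45-fold (adjusted p = 0.0106). Megf6, a secreted protein with EGF-like repeats, fell 4.88-fold, from 3.94 ± 2.92 to 0.806 ± 0.464 TPM, with overlapping libraries. Without the block, Mfap2, Mfap4, Mfap5, Efemp1, Lum, Dcn, Fmod, Vcan, Loxl2, Loxl4, Plod1, Plod2, Plod3, P4ha1 and P4ha2 did not pass the test.

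For 12 of the 26 calls at 24 h, leaving out a single library ended the call. These were Postn and Thbs2, given above, and Tgfbi, Spp1, Fbln2, Fbln5, Bgn, Lama5, Lamb2, Loxl1, Pcolce and Megf6, with adjusted p values up to 0.205 (Fbln2 without vehicle replicate 3). Dexamethasone replicate 4 ended 11 of the calls (0.056 to 0.188), and vehicle replicates 2, 3 and 4 ended 7 each (0.0501 to 0.205 over the 3). Dexamethasone replicates 1, 2 and 3 ended 3, 6 and 6 (0.0503 to 0.146 over the 3), and vehicle replicate 1 ended 5 (0.0604 to 0.0883). Fbln2, Fbln5, Bgn, Lama5, Loxl1 and Megf6 also lost the call on TPM (adjusted p between 0.0609 and 0.145). Tgfbi and Eln were too low to be tested on TPM, and both lost the call when only the 24 h groups were fitted (0.119 and 0.0643), as did Spp1 (0.0754), Fbln2 (0.0818) and Lama5 (0.114). With no filter on low values Tgfbi, Fbln2, Fbln5, Lama5 and Megf6 did not pass (0.055 to 0.097). All groups share one estimate of the spread, so leaving out both replicate 1 libraries at 72 h also changed the tests at 24 h. All 26 calls then held, with 9 members higher and 21 lower, against 2233 and 2113 of 16257 genes. On TPM without those libraries Fbln2, Lama5 and Loxl1 lost the call, and Postn, Fbln5, Bgn and Megf6 kept it.

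**Figure D3:**
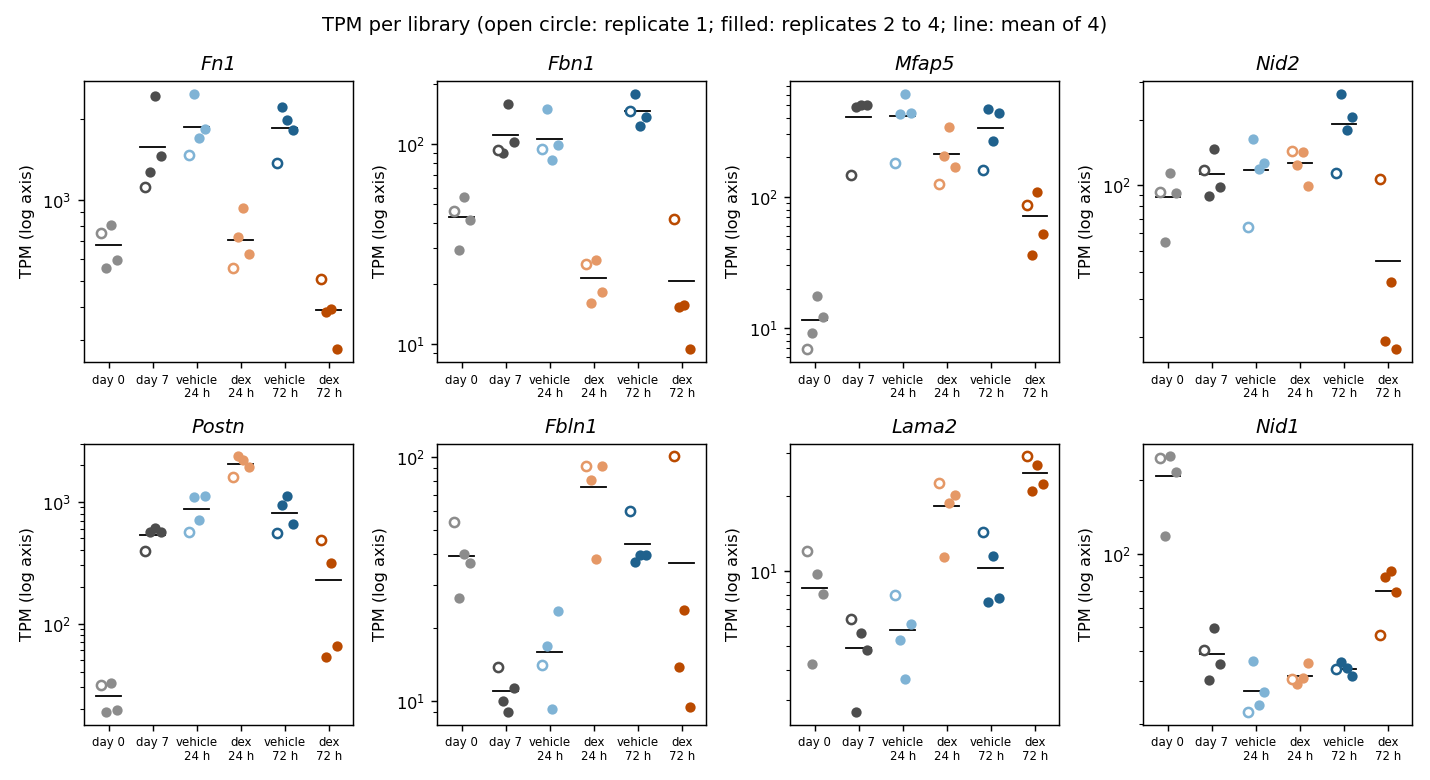
TPM of 8 members in each library on a log axis, by group; open circles are replicate 1, filled circles replicates 2 to 4, and lines the mean of 4. Fn1 and Mfap5 have their lowest myotube means with dexamethasone at 72 h, Fbn1 is low with dexamethasone at both times, Postn and Fbln1 are high at 24 h and low at 72 h in replicates 2 to 4, Nid2 is low with dexamethasone at 72 h in replicates 2 to 4, and Lama2 is high at both times.

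At 72 h the comparison of dexamethasone with vehicle gave 5 members higher and 28 lower of 47. Over all genes 30.3% were called (15.2% higher and 15.2% lower), so the members' calls were mostly in one direction where those of all genes were even. The members were chosen with earlier results of these data known, so this contrast is descriptive. The members' median difference was -0.72 on the log2 scale, against 0.01 over all genes. Without the replicate 1 libraries 5 were higher and 29 lower, against 15.1% and 15.7% of all genes, and the median was -0.91. On TPM the count was 4 higher and 27 lower of 45, against 11.5% and 15.1% of all genes. Glycoproteins counted 0 higher and 7 lower of 9, elastic fibre genes 1 and 7 of 10, proteoglycans 0 and 4 of 5, and collagen maturation genes 1 and 6 of 12. Basement membrane genes counted 3 higher and 2 lower of 9, and Cd248 and Megf6 were both lower. Without replicate 1 elastic fibre genes counted 1 higher and 8 lower, and the counts of the other roles were the same.

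Thbs1 stood at 626.1, 1708.6, 964.0 and 1255.0 TPM with vehicle and 214.5, 169.0, 167.4 and 145.0 TPM with dexamethasone. The treated libraries were all lower and close together, and the mean fell 6.54-fold (log2 difference -1.73 ± 0.18 SE, adjusted p = 7.05e-07) or 8.16-fold without replicate 1. Fn1 stood at 1364.1, 2207.1, 1971.4 and 1818.3 TPM with vehicle and 504.8, 381.1, 392.9 and 277.8 TPM with dexamethasone. The groups did not overlap, and Fn1 fell 4.73-fold (log2 difference -1.49 ± 0.16 SE, adjusted p = 7.03e-07) or 5.7-fold without replicate 1. Postn fell 3.56-fold (adjusted p = 0.000395), from 816.3 ± 254.8 to 229.2 ± 208.5 TPM. Its treated replicates 1 to 4 stood at 485.2, 53.4, 313.0 and 65 TPM, so replicates 2 and 4 were far below the others, and the fold without replicate 1 was 6.28. Sparc fell 3.75-fold, from 4385.4 ± 1247.4 to 1168.5 ± 946.2 TPM (adjusted p = 5.32e-05), and 6.49-fold without replicate 1. Tnc fell 3.8-fold with 1 overlapping pair of libraries, and 5.16-fold without replicate 1. Dpt fell from 2.88 ± 0.952 to 0.235 ± 0.425 TPM, or from 2.62 to 0.0227 TPM without replicate 1. Thbs2, which had risen at 24 h, fell 2.04-fold (adjusted p = 0.0371), and 2.57-fold without replicate 1 (0.0163). This call was lost without any one of dexamethasone replicates 2 and 4 and vehicle replicates 2 and 4 (0.0872 to 0.166), with no filter (0.0765), and when only the 72 h groups were fitted (0.12). Spp1 was at 3940.0 ± 799.2 TPM with dexamethasone and 2485.7 ± 950.9 TPM with vehicle (adjusted p = 0.135, or 0.081 without replicate 1), and it was called higher with the replicate number as a block (0.0345).

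Of the elastic fibre genes, Fbn1 stood at 146.0, 177.7, 122.1 and 135.4 TPM with vehicle and 42, 15.3, 15.7 and 9.43 TPM with dexamethasone. Replicate 1 was the highest treated library but below all vehicle libraries. The mean fell 7.06-fold (log2 difference -2.01 ± 0.19 SE, adjusted p = 2.22e-07) or 10.8-fold without replicate 1. Mfap2, a small microfibril protein, stood at 4.53, 7.34, 4.68 and 7.75 TPM with vehicle and 2.34, 0.23, 0.75 and 0.0886 TPM with dexamethasone. The groups did not overlap, and Mfap2 fell 7.12-fold (log2 difference -1.96 ± 0.28 SE, adjusted p = 1.96e-05). Without replicate 1, the highest treated library, the means were 6.59 and 0.356 TPM (log2 difference -2.41, adjusted p = 2.16e-07), and the treated mean is then too low for a fold. Fbln5 stood at 20.8, 41.2, 30.1 and 37.3 TPM with vehicle and 12, 4.08, 6.42 and 3.93 TPM with dexamethasone. It too was lower in every treated library, falling 4.89-fold (adjusted p = 3.86e-06) or 7.53-fold without replicate 1.

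Mfap5 stood at 160.6, 466.3, 263.8 and 436.8 TPM with vehicle at 72 h and 86.7, 36.1, 108.8 and 52 TPM with dexamethasone. The groups did not overlap, and the mean fell 4.68-fold (log2 difference -1.49 ± 0.30 SE, adjusted p = 0.000701) or 5.93-fold without replicate 1. Efemp1 fell 3.18-fold (log2 difference -1.47), and without replicate 1 its means were 2.15 TPM with vehicle and 0.295 TPM with dexamethasone (-1.91). Efemp2 fell 2.25-fold, or 2.79-fold without replicate 1. Mfap4 was called lower at 0.235 TPM against 0.458 TPM, but the call was lost on TPM (0.0592), with no filter (0.0694), with only the 72 h groups (0.104) and without any one of replicates 2, 3 and 4 of either group (0.051 to 0.145). Eln was called higher, at 0.151 TPM against 0.0296 TPM (0.143 against 0.0225 TPM without replicate 1). Fbln1 stood at 60.3, 37.2, 39.5 and 39.6 TPM with vehicle and 100.4, 13.8, 23.7 and 9.49 TPM with dexamethasone. The replicate 1 libraries were the highest of both groups and the treated one exceeded all others. With them Fbln1 did not pass the test (adjusted p = 0.222), and without them it was 2.47-fold lower (log2 difference -0.92, adjusted p = 0.00298). Fbln2 did not pass the test, nor did Tgfbi among the glycoproteins.

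All 4 small leucine-rich proteoglycans fell at 72 h. Dcn stood at 150.3, 106.7, 75.7 and 170.1 TPM with vehicle and 54.7, 14.5, 45.9 and 34.6 TPM with dexamethasone. Its groups did not overlap, and it fell 3.36-fold (adjusted p = 0.0008) or 3.71-fold without replicate 1. Bgn fell 2.65-fold, from 2086.1 ± 450.8 to 785.8 ± 460.7 TPM (adjusted p = 0.000105), and 3.7-fold without replicate 1. Lum fell from 4.1 ± 2.45 to 0.153 ± 0.288 TPM (adjusted p = 0.000134), or from 4.49 to 0.00877 TPM without replicate 1. Fmod fell 3.71-fold (adjusted p = 0.00433), and 12.9-fold without replicate 1, whose treated library was at 16 TPM where the others stood between 0.258 and 2.99 TPM. With only the 72 h groups fitted, Fmod did not pass (0.068). The larger proteoglycan Vcan, which binds hyaluronan, did not pass the test, at 46.8 ± 16 TPM with dexamethasone and 34.2 ± 14.7 TPM with vehicle.

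The basement membrane genes split. Nid2 stood at 114.4, 264.0, 179.6 and 206.3 TPM with vehicle and 106.9, 19.1, 36 and 17.6 TPM with dexamethasone. In replicate 1 the levels were almost equal, and in replicates 2 to 4 the treated libraries were far lower. The mean fell 4.25-fold (log2 difference -1.58 ± 0.26 SE, adjusted p = 7.24e-05) or 8.94-fold without replicate 1. The other nidogen, Nid1, stood at 33.7, 36, 34.1 and 31.5 TPM with vehicle and 46.3, 80.2, 85 and 69.5 TPM with dexamethasone. All treated libraries were higher, and the mean rose 2.07-fold (log2 difference 0.71 ± 0.12 SE, adjusted p = 0.000104) or 2.31-fold without replicate 1. Lama2 was at 10.3 ± 3.3 TPM with vehicle and 24.8 ± 3.7 TPM with dexamethasone, a 2.41-fold rise (adjusted p = 0.000937), or 2.62-fold without replicate 1. Lamc1 rose 1.51-fold, or 1.45-fold without it. Lama4 fell 2.08-fold (adjusted p = 0.00479, or 0.0603 with only the 72 h groups), and 2.97-fold without replicate 1. Lama5, Lamb1, Lamb2 and Hspg2 did not pass the test.

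Of the collagen maturation genes, Loxl1 fell 2.44-fold, from 120.1 ± 12.8 to 49.2 ± 15 TPM (adjusted p = 4.39e-06), Serpinh1 2.14-fold and Plod2, the lysyl hydroxylase of collagen telopeptides, 2.04-fold. Pcolce, P4ha1 and Plod1 fell 1.88-fold, 1.43-fold and 1.28-fold, and Plod1 lost the call with only the 72 h groups (0.0556). Without replicate 1 the folds were 2.87 for Loxl1, 2.62 for Serpinh1, 2.56 for Plod2, 2.44 for Pcolce, 1.5 for P4ha1 and 1.36 for Plod1. P4ha2 rose 1.34-fold, from 47.5 ± 3.11 to 63.7 ± 10.8 TPM. Without replicate 1 the rises of P4ha2 and Lamc1 passed on the log2 table (0.0334 and 0.0186) but not on TPM (0.106 and 0.0834). Lox, Loxl2, Loxl3, Loxl4 and Plod3 did not pass the test. Cd248 fell 4.14-fold, from 10.9 ± 3.13 to 2.64 ± 2.63 TPM (adjusted p = 0.000174), and 7.69-fold without replicate 1. Megf6 stood at 1.88, 14.6, 1.84 and 11.5 TPM with vehicle and 0.312, 0.0205, 0.0266 and 0.00769 TPM with dexamethasone. Every treated library was below 0.5 TPM and every vehicle library above 1 TPM (log2 difference -3.41 ± 0.51 SE, adjusted p = 2.86e-05, or -4.03 without replicate 1). No fold is given at that level.

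**Figure D4:**
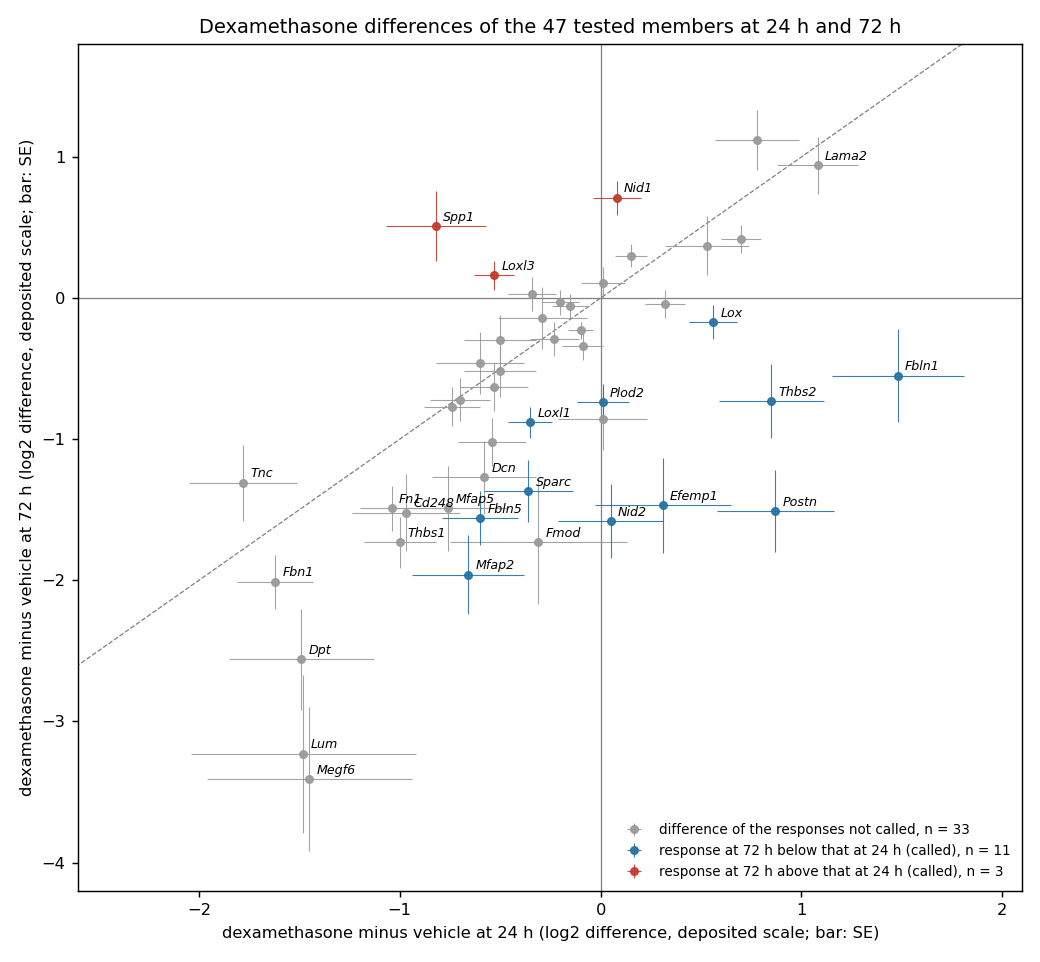
Log2 differences between dexamethasone and vehicle with SE for 47 members at 24 h (horizontal) and 72 h (vertical), from the deposited log2 table; the dashed line marks equal differences. Blue points are the 11 members whose difference was lower at 72 h than at 24 h by the test of the interaction, red points the 3 that were higher, and grey points the other 33.

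The difference between the responses at 72 h and 24 h was tested directly, as an interaction. It was lower at 72 h for 11 members and higher for 3 of 47, against 11.3% of all genes called (5.56% higher and 5.77% lower). On TPM 3.93% of all genes were higher and 6.93% lower, the median over all genes lay at -0.12, and the members counted 2 higher and 12 lower of 45. Without the replicate 1 libraries 19 members were lower and 3 higher, against 8.71% lower and 6.46% higher of all genes. The lower members were Postn, Sparc, Thbs2, Mfap2, Fbln1, Fbln5, Efemp1, Nid2, Lox, Loxl1 and Plod2, and the higher ones Spp1, Nid1 and Loxl3. Those added as lower without replicate 1 were Thbs1, Dpt, Fbn1, Bgn, Fmod, Lama4, Lamb2 and Megf6. With the replicate number as a block Thbs1 (adjusted p = 0.0442), Lamb2 (0.0258) and Megf6 (0.0492) were also lower.

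Postn had the most negative interaction of the members, being 2.34-fold higher with dexamethasone at 24 h and 3.56-fold lower at 72 h (interaction -2.38 ± 0.41 SE on the log2 scale, adjusted p = 0.000856, or -2.85 without replicate 1). Its lowest treated library at 24 h, at 1609.5 TPM, was above its highest treated library at 72 h, at 485.2 TPM. Fbln1 was 4.74-fold higher at 24 h and stood at 36.9 ± 42.8 against 44.1 ± 10.8 TPM at 72 h (interaction -2.03 ± 0.46 SE, adjusted p = 0.00611, or -2.41 without replicate 1). Thbs2 was 2.39-fold higher at 24 h and 2.04-fold lower at 72 h (interaction -1.58 ± 0.37 SE, adjusted p = 0.00689, or -1.81 without replicate 1). Nid2 stood at 127.4 ± 20.5 TPM with dexamethasone and 118.0 ± 40.8 TPM with vehicle at 24 h, and was 4.25-fold lower at 72 h (interaction -1.62 ± 0.36 SE, adjusted p = 0.00521, or -2.13 without replicate 1). Lox, higher at 24 h, was at 331.2 ± 94.9 TPM against 394.4 ± 83.9 TPM at 72 h (interaction -0.73, adjusted p = 0.00739, or -0.84 without replicate 1).

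Spp1 had the largest positive interaction of the members (1.34, adjusted p = 0.0175, or 1.48 without replicate 1). Its levels were 3828.0, 2233.0, 891.4 and 2667.5 TPM with vehicle and 1735.8, 997.8, 562.9 and 897.6 TPM with dexamethasone at 24 h. At 72 h they were 3905.3, 1906.3, 2000.1 and 2131.0 TPM with vehicle and 4120.8, 3267.8, 4995.2 and 3376.2 TPM with dexamethasone. The treated libraries were lower than vehicle in each replicate at 24 h and higher in each at 72 h. Leaving out single libraries ended 5 of the calls: Sparc, Mfap2, Fbln5, Loxl1 and Efemp1. Dexamethasone 72 h replicate 4 ended all 5 (0.0544 to 0.0938), and dexamethasone 72 h replicate 2, vehicle 24 h replicate 1 and vehicle 72 h replicate 2 ended 4 each (0.0582 to 0.0937 over the 3). Dexamethasone 24 h replicates 2 and 3 and vehicle 72 h replicate 4 ended 3 each, dexamethasone 24 h replicate 1 and vehicle 24 h replicate 3 ended 2 each, and dexamethasone 24 h replicate 4 ended 1 (0.0502 to 0.0744 over these). The count of members called was 9 without dexamethasone 72 h replicate 4 and 24 without dexamethasone 72 h replicate 1. Over all 16257 genes it was 1256 and 2686. Nid1 lost the call on TPM (0.0989). Sparc, Mfap2, Fbln5 and Loxl1 lost it with no filter (0.0578 to 0.0737) and with only the 4 treated and vehicle groups (0.0711 to 0.0951).

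Vehicle myotubes at 72 h were compared with day 7 myotubes to show what changed without dexamethasone; ethanol and the later time cannot be told apart here. Of 47 members 3 were higher and 2 lower, against 19.1% of all genes called (8.77% higher and 10.3% lower). On TPM, where the median over all genes lay at 0.11, 1559 genes were higher and 987 lower. Fbln1 stood at 13.8, 10, 9.05 and 11.3 TPM at day 7 and 60.3, 37.2, 39.5 and 39.6 TPM with vehicle at 72 h. All vehicle libraries were higher, and the mean rose 4-fold (log2 difference 1.25 ± 0.33 SE, adjusted p = 0.0132), or 3.51-fold without replicate 1. Lama2 stood at 6.39, 2.7, 5.62 and 4.78 TPM at day 7 and 14.4, 7.52, 11.5 and 7.77 TPM with vehicle, which did not overlap. It rose 2.11-fold (adjusted p = 0.0272) but not without replicate 1 (0.0831). It also lost the call with no filter (0.0581), and without any one of day 7 replicates 2 and 4 and vehicle replicates 1 and 3 (0.0578 to 0.109). Lamb1 rose 1.49-fold with or without replicate 1, a call that day 7 replicate 2 ended when left out (0.062). Loxl2 fell 2.16-fold, or 2.51-fold without replicate 1, and this was lost without day 7 replicate 1 (0.0541) or vehicle replicate 3 (0.0593). Tgfbi fell from 0.188 to 0.0623 TPM (0.0565 TPM without replicate 1). Without both replicate 1 libraries 5 members were higher and 3 lower, against 8.55% and 9.74% of all genes. Nid2, Lama4 and Plod2 were then also higher and Loxl4 lower.

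Set against day 7 myotubes, which this comparison shares with the one just given, dexamethasone at 72 h gave 7 members higher and 27 lower of 47. Of all genes 47.7% were called (23.8% higher and 23.9% lower). On TPM 3935 genes were higher and 2912 lower. Without replicate 1 the count was 7 higher and 30 lower, against 24.2% and 24.2% of all genes. The treatment, ethanol and 3 days in culture are joined in it. By role, 8 of 9 glycoproteins, 7 of 10 elastic fibre genes, 3 of 5 proteoglycans and 6 of 12 collagen maturation genes were lower, as were Cd248 and Megf6. Without replicate 1 Efemp1, Dcn and Lama4 were also lower. Of the 9 basement membrane genes 4 were higher (Nid1, Lama2, Lamb1 and Lamc1) and 1 lower (Nid2). The other higher members were Spp1, Eln and Loxl3.

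Thbs1 stood at 778.8, 932.3, 1422.2 and 1076.4 TPM at day 7 and 214.5, 169.0, 167.4 and 145.0 TPM with dexamethasone at 72 h, a 6.05-fold fall without overlap (adjusted p = 2.29e-07). Mfap5, at 408.0 ± 174.0 TPM at day 7 and 70.9 ± 32.9 TPM with dexamethasone, fell 5.75-fold (adjusted p = 7.6e-05). Tnc stood at 81.3, 57.4, 92 and 58.6 TPM at day 7 and 23.3, 16.4, 5.28 and 5.78 TPM with dexamethasone, and fell 5.7-fold (adjusted p = 1.17e-05), again without overlap. Without replicate 1 these folds were 6.56, 6.21 and 7.9. Megf6, at 1.72, 8.09, 8.17 and 5.51 TPM at day 7, was below 0.5 TPM in every treated library (log2 difference -3.49, adjusted p = 1.13e-05, or -3.79 without replicate 1). Lama2, at 4.87 ± 1.59 TPM at day 7 and 24.8 ± 3.7 TPM with dexamethasone, rose 5.09-fold (adjusted p = 1.97e-06), or 4.8-fold without replicate 1. Spp1 rose 2.94-fold (0.00183), or 2.9-fold without it. The remaining lower members were Fn1, Postn, Sparc, Tgfbi, Thbs2, Dpt, Fbn1, Mfap2, Mfap4, Fbln2, Fbln5, Efemp2, Lum, Bgn, Fmod, Loxl1, Loxl2, Plod1, Plod2, Pcolce, Serpinh1 and Cd248. Loxl3 lost its call after quantile normalisation (0.0568) and without any one of day 7 replicates 2 and 4 and dexamethasone replicate 2 (0.0761 to 0.0922). Plod2 lost it without dexamethasone replicate 4 (0.055) or with only the groups compared (0.0681), and Plod1 on TPM (0.0821).

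Other matrix genes that are not members were counted in the same fits. Of 44 tested genes of other matrix glycoproteins and proteoglycans, 11 were higher and 11 lower at day 7, 4 and 7 with dexamethasone at 24 h, and 5 and 22 at 72 h (5 and 26 without replicate 1). The shares called were 50%, 25% and 61.4%, against 60.3%, 25.4% and 30.3% of all genes, so the first was below the background and the second level with it. Aspn, Omd and Ltbp2 fell 7.76-fold, 6.73-fold and 4.76-fold at day 7. Svep1 and Matn2 rose 4.22-fold and 3.36-fold with dexamethasone at 24 h, and Ccn4 fell 4.06-fold. At 72 h Fbln7 was 8.82-fold lower with dexamethasone, at 5.33 ± 7.51 TPM against 47 ± 13.6 TPM with vehicle, and 30.8-fold lower without replicate 1. At day 7 it stood at 8.75 ± 1.34 TPM, so the vehicle level was itself 5.37-fold above day 7 (limma adjusted p = 0.00655). Without replicate 1 that rise was 5.61-fold. Spon2 and Slit2 fell 5.23-fold and 4.85-fold at 72 h, and 11.1-fold and 6.94-fold without replicate 1. Ccn2 (connective tissue growth factor) rose 7.44-fold with dexamethasone at 72 h relative to day 7, from 67.2 ± 26.8 to 500.0 ± 75.1 TPM (adjusted p = 1.33e-08), or 7.75-fold without replicate 1. With vehicle at 72 h it was also above day 7, at 161.4 ± 27.8 TPM (2.4-fold, limma adjusted p = 0.00389), or 2.2-fold without replicate 1. Treatment, ethanol and time are joined in the rise with dexamethasone.

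Of 18 tested genes of other collagen folding and processing enzymes, 5 were higher and 3 lower at day 7, 0 and 11 with dexamethasone at 24 h, and 2 and 11 at 72 h (2 and 12 without replicate 1). The shares called were 44.4%, 61.1% and 72.2%, against 60.3%, 25.4% and 30.3% of all genes, so the first was again below the background. P3h3, a prolyl 3-hydroxylase, fell 1.82-fold at 24 h and 3.48-fold at 72 h, and Bmp1, the procollagen C-proteinase, fell 2.37-fold at 72 h (4.84-fold and 3.05-fold at 72 h without replicate 1). Pcolce2 fell 6.6-fold at day 7 and 1.82-fold at 24 h. At 72 h it was instead 2.24-fold higher with dexamethasone, or 2.35-fold without replicate 1. Of 23 genes of glycosaminoglycan and hyaluronan synthesis, 5 were higher and 7 lower at day 7, 1 and 8 at 24 h, and 1 and 10 at 72 h with or without replicate 1. The shares called were 52.2%, 39.1% and 47.8%, the first also below the background. Has2, a hyaluronan synthase, rose 2.75-fold at day 7 and fell 3.98-fold with dexamethasone at 24 h and 4.97-fold at 72 h (7.54-fold without replicate 1). Has1 went the other way at day 7, falling 11.2-fold from 11.8 to 1.05 TPM. At 72 h it was 2.51-fold higher with dexamethasone, at 1.69 against 0.675 TPM (2.83-fold without replicate 1). Of 24 matrix receptors, 10 were higher and 7 lower at day 7, 5 and 5 at 24 h, and 4 and 7 at 72 h (4 and 6 without replicate 1). The shares called were 70.8%, 41.7% and 45.8%, and at 24 h the calls were even in direction. Itga10, a collagen-binding integrin subunit, rose from 0.629 to 6.57 TPM and Cd44, the hyaluronan receptor, fell 4.14-fold at day 7. Itga11, another such subunit, fell 3.13-fold at 24 h and 13-fold at 72 h, from 13.8 ± 4.65 to 1.06 ± 1.39 TPM. Without replicate 1 its 72 h means were 15.1 and 0.382 TPM, too low for a fold. The syndecan Sdc2 fell 2.46-fold at 24 h and 4.05-fold at 72 h, or 5.1-fold without replicate 1.

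Markers of cells that such cultures can hold were measured beside the matrix genes, and their part in the results was not tested. All 10 myotube markers rose at day 7, their sum going from 318.4 ± 58.3 to 17312.4 ± 550.6 TPM. At 24 h they summed to 19966.0 to 22370.2 TPM with dexamethasone and 19130.2 to 26360.1 TPM with vehicle. At 72 h 1 was higher and 1 lower (3 and 1 without replicate 1), with sums between 19338.3 and 24183.6 TPM with dexamethasone and between 15647.5 and 22876.8 TPM with vehicle. All 10 proliferation markers fell at day 7, from a sum of 1395.8 ± 56.9 to 171.6 ± 91.2 TPM. At 24 h they summed to 24.3 to 38.5 TPM with dexamethasone and 25.3 to 90.5 TPM with vehicle. All 10 were higher with dexamethasone at 72 h, at 136.2 to 482.1 TPM against 17.1 to 64.2 TPM with vehicle. Without replicate 1 all 10 were still higher, with mean sums of 283.5 and 38.2 TPM. Fibroblast-lineage markers, mostly fibrillar collagens by level, summed to 1926.7 to 2174.9 TPM with dexamethasone at 24 h and 2527.2 to 3623.8 TPM with vehicle. At 72 h they summed to 386.7 to 1996.8 TPM, the highest being replicate 1 and the next 914.4 TPM, against 2525.6 to 3950.0 TPM with vehicle. Of the 9 tested, 4 were higher and 2 lower at 24 h, and 2 and 5 at 72 h with or without replicate 1. At 24 h Col1a1, Col1a2 and Col3a1 were lower in every treated library than in any vehicle library. Scara5 (65 to 149.0 against 1.01 to 5.7 TPM), Ly6a (352.8 to 531.3 against 96.8 to 231.5 TPM), Pdgfra and Twist2 were higher in every one. At 72 h Ly6a and Twist2 were still above all vehicle libraries, and the 3 collagens, Pdgfrb and Pi16 were below them. Thy1 stayed at or below 0.321 TPM in every library.

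The 4 tendon cell markers summed to 133.5 ± 21.3 TPM at day 0 and 245.4 ± 8.23 TPM at day 7. At 24 h they summed to 192.5 to 209.7 TPM with dexamethasone and 274.9 to 307.2 TPM with vehicle. At 72 h the sums were 125.8 to 155.7 and 196.8 to 285.8 TPM (means 145.6 and 241.9 TPM without replicate 1). Nearly all of it was Scx, while Tnmd did not exceed 0.288 TPM and Kera 0.0247 TPM. The 6 adipocyte markers summed to 34.6 to 55.7 TPM with dexamethasone at 24 h and 64 to 88.8 TPM at 72 h, against 2.39 to 3.2 TPM and 3.16 to 10.7 TPM with vehicle. The 10.7 TPM was vehicle 72 h replicate 1, and the next highest was 3.68 TPM. Most of the sum with dexamethasone was Fabp4, and the defining adipocyte genes Adipoq, Plin1, Cidec and Lep did not exceed 0.136 TPM in any library. The 6 immune and endothelial markers summed to at most 4.65 TPM in any library, mostly Cd68, and Ptprc, Adgre1, Pecam1, Cdh5 and Kdr did not exceed 0.0676 TPM.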

How the data were processed

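Poly(A) RNA of 24 C2C12 libraries was made into stranded libraries per the labels' protocols. The authors deposited 2 tables of 48544 genes: TPM, which sum to 1000000 in each library, and log2 values normalised between libraries by a method not given in the sources used here. The submitters' processing notes name Salmon, DESeq, kallisto 0.51.1 and build GRCm39, with no roles. The deposited log2 values are not counts and ran from -2.33 to 20.06, and depth is unknown, so no count model was used.

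The members and lists were chosen with earlier results of these data known. One limma 3.58.1 fit (R 4.3.3, mean-variance trend, one mean per group) was made on the log2 values of genes with 2 to the power of the value at 10 or more in at least 4 libraries, with Benjamini-Hochberg adjustment over all 16257 genes. The script was tested on simulated data. TPM gave levels and folds, with a fold only where both means were at least 0.5 TPM. Members given in every library were those called with a ratio of mean TPM of 2 or more and a mean of 5 TPM or more: the 8 with the largest ratio for the first 3 comparisons and 4 for the others. The most abundant members of each role and up to 3 called genes per other list were also named.

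Alternatives were log2(TPM + 0.1) and log2(TPM + 1), with at least 0.5 TPM in 4 libraries, no filter, a minimum of 50, quantile normalisation, only the groups compared, the replicate number as a block, each library left out, and both replicate 1 libraries at 72 h left out. The last was combined with the block and with TPM after seeing the data. Replicate numbers come from the labels. Samples with the same number deviated together. Their correlations were 0.14 to 0.21 for differentiation, 0.20 to 0.39 at 24 h and 0.12 to 0.34 at 72 h. The own number was highest in 4 of 4 for differentiation and at 24 h, and in 3 of 4 at 72 h. The numbers were therefore taken to pair the samples there, less clearly at 72 h. The main calls come from the fit without this pairing, and the block is an alternative.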

Additional observations from a re-analysis of the deposited data

Results flagged for a closer look

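Of 108 groups of 4 libraries examined, 7 had 1 library far from the other 3, and chance gives about 1 in 20. The groups were those of the members chosen, by call and size of ratio, for a listing of every library. They were thus picked from the data, and the chance rate is only a rough guide. In the dexamethasone 72 h group replicate 1 was the high library for Fbln1 (100.4 TPM against 9.49 to 23.7), Cd248 (6.55 TPM against 0.974 to 1.77) and Megf6 (0.312 TPM against 0.00769 to 0.0266). The vehicle 72 h replicate 1 library was high for Fbln1 (60.3 TPM against 37.2 to 39.6). Mfap5 was low in day 7 replicate 1 (147.2 TPM against 484.7 to 502.4). Fbln5 was high in day 0 replicate 3 (19.2 TPM against 13.8 to 14.4), and Lama4 in dexamethasone 24 h replicate 2 (12.3 TPM against 9.54 to 9.93). The remaining members were not examined in this way, so the list is not complete. Spp1, for example, was high in vehicle 72 h replicate 1 (3905.3 TPM against 1906.3 to 2131.0).

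The response to dexamethasone differed between 24 h and 72 h for 14 members by the limma test of the interaction, given here as log2 differences. It was lower at 72 h for Postn (-2.38), Fbln1 (-2.03), Efemp1 (-1.78), Nid2 (-1.62), Thbs2 (-1.58), Mfap2 (-1.30), Sparc (-1.02), Fbln5 (-0.96), Plod2 (-0.75), Lox (-0.73) and Loxl1 (-0.53). It was higher for Spp1 (1.34), Loxl3 (0.69) and Nid1 (0.63).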

How the results depend on the processing

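No member called in a comparison changed direction under the alternatives run. The count of members called at 24 h went from 26 of 47 to 17 of 45 on log2(TPM + 0.1) and 17 on log2(TPM + 1). Over all genes the count went from 4134 of 16257 to 3292 and 3320 of 15249. The count for the difference between the responses went from 14 to 22 without both replicate 1 libraries at 72 h, to 27 when the replicate block was added to that, and to 24 on TPM without those libraries. In the same order the count over all genes went from 1842 to 2466, 2808 and 2091, the last of 15249 genes. For vehicle at 72 h against day 7 the members called went from 5 to 9 with only those groups, to 8 with the replicate block, to 8 without the replicate 1 libraries, and to 12 with both changes. All genes called went from 3104 to 2505, 3630, 2974 and 3023 in that order. The causes were not tested. Leaving out each library gave 26 to 30 members for differentiation, 15 to 24 at 24 h, 31 to 35 at 72 h, 9 to 24 for the difference between the responses, 3 to 6 for vehicle at 72 h against day 7, and 33 to 37 for dexamethasone at 72 h against day 7. In that order, all genes called ranged from 9023 to 9604, 2706 to 4358, and 3892 to 5472. For the later comparisons the ranges were 1241 to 2686, 1207 to 3245, and 6608 to 7882 of 16257 genes.

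With the replicate block, calls of members in the paired comparisons changed as given in the report and no other did. Same-numbered samples of the vehicle 72 h and day 7 groups correlated from -0.03 to 0.43, with the own number highest in 2 of 4. Those of the dexamethasone 72 h and day 7 groups correlated from -0.06 to 0.31, with it highest in 3 of 4. Each range held a negative correlation, so these samples were not taken as pairs. Depth is unknown, so counting error is not separated from other spread, and members below 1 TPM are the least certain.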
